A study of Brassica rapa with 6 samples.

Results

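The predicted small RNAs of 24 nt that begin with adenine were examined in the leaf blade and the petiole, the stalk that carries the blade, of Chinese cabbage (Brassica rapa). They were taken as the sequences with a predicted name, a length of 24 nt, a first base A and a mean of at least 5 normalized counts over the 6 libraries, each sequence counted once. This gave 135 of the 1011 distinct sequences in the table, and 147 more with the same length and first base fell under the mean of 5. The plants were wild type and grown in a greenhouse, with 3 leaf and 3 petiole libraries of small RNA and no treatment. Nothing in the labels says whether replicates came from separate plants, or how old the plants were, so p-values measure the spread between these libraries, which may be technical. The tissue labels were not checked against marker genes, as only small RNA was used here. The members were chosen by length, first base and abundance, so those 3 properties are described here without a test.

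In plants, small RNAs of this length are mostly short interfering RNAs. RNA polymerase IV transcribes transposons and other repeats, RDR2 makes the transcript double-stranded, and the Dicer-like enzyme DCL3 cuts it. The products are loaded into AGO4 and related Argonaute proteins, which favour a first base A, and guide DNA methylation to matching loci. MicroRNAs are instead cut from hairpins, mostly by DCL1, and are usually shorter. The deposited names call these sequences predicted miRNAs, with 5p or 3p for the side of the predicted hairpin; without a genome, whether they come from hairpins was not tested.

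The sequences below are the 3 most abundant members and the 6 with the largest rises in petiole, which carry the results that follow. They are written 5′ to 3′, with bases 2 to 8, the seed of a miRNA, in capitals.
PC-5p-1834_1331: aTCCCGGGaagatcagacgttgat
PC-5p-7170_456: aCTTCCATgactaaatcaacaagt
PC-3p-8640_390: aCAAAGTTttatactgataatctg
PC-5p-134111_33: aAGAACCGtctcttaacttttaac
PC-5p-171693_24: aGAGTTTTgagagattgtgtgagt
PC-5p-160804_26: aGAATTTAagaatctgtccttagc
PC-5p-138317_32: aTAAGAAAccgtcttttaactttt
PC-3p-75460_62: aGAGTGAAccattggagcaaattt
PC-5p-88427_53: aAGTTCCTtatgtattactcaagt

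Most members were present at low levels, and 2 stood far above the others. The mean over the 6 libraries ran from 5.01 to 628 normalized counts with a median of 12.9; 44 members lay under 10, 83 between 10 and 50, and 8 at 50 or more. The 2 most abundant, PC-5p-1834_1331 and PC-5p-7170_456, made up 30.1% of the members' summed level and the first 10 made up 43.9%. Among all distinct sequences these 2 ranked 62 and 77. The 3 members nearest above the limit, PC-3p-248405_13, PC-5p-143293_31 and PC-3p-168274_24, had means of 5.12, 5.09 and 5.01. Just under it were PC-5p-143728_30, PC-3p-105972_44 and PC-5p-205928_18, with 4.95, 4.94 and 4.90.

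Scarce members were measured less precisely than abundant ones. Low values lay on a regular step, taken as the worth of 1 read, of 0.904 to 1.06 normalized counts, so the median member rested on 9.50, 11 and 12 reads in the leaf libraries and 17, 15 and 18 in the petiole libraries. Some low values lay midway between steps, so these numbers of reads are nominal. For the 42 members with a mean of 20 or more, the median coefficient of variation was 23.8% (leaf) and 19.7% (petiole). Among the 93 less abundant members it was 54.4% and 37.3%. The depth of the libraries as read from the step was 729550 to 771494 reads in leaf and 457189 to 474175 in petiole, summed over the sequences listed.

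Members were listed at 0 more often in leaf than in petiole. The members at 0 numbered 20, 16 and 8 in the leaf libraries and 6, 6 and 2 in the petiole libraries, so the tissues did not overlap. As shares of the members these were 14.8%, 11.9% and 5.93% in leaf and 4.44%, 4.44% and 1.48% in petiole. Of the 1011 distinct sequences 324, 333 and 302 were at 0 in leaf and 256, 244 and 219 in petiole, again without overlap. Among the other 466 tested sequences the numbers overlapped, with 40, 50 and 37 in leaf (7.94% to 10.7%) and 44, 38 and 35 in petiole (7.51% to 9.44%). In all, 95 members were above 0 in all 6 libraries, 26 were at 0 in 1 library, 10 in 2 and 4 in 3 or more. No member was at 0 in all petiole libraries, and 2, PC-5p-134111_33 and PC-5p-171693_24, were at 0 in all leaf libraries. Those 2 passed the limit on the mean through petiole alone, so they could not come out lower there. A leaf mean under 5 was found in 13 members, which reached the limit only through petiole, and this favoured zeros in leaf for them. Values under 3 reads were rare in the table (14 to 27 sequences a library), so a 0 is given as listed at 0 and not as absence.

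Summed over the members, the level was slightly higher in petiole on the deposited scale, and their share of the library was more than doubled. The sums were 3050, 3048 and 3189 normalized counts in the leaf libraries and 3641, 3451 and 3758 in the petiole libraries, a ratio of 1.17 between the tissue means. The petiole sums all lay above the leaf sums. As a share of the summed counts of a library they were 0.385%, 0.379% and 0.413% in leaf and 0.843%, 0.770% and 0.876% in petiole, a ratio of 2.11. An exact two-sided permutation test gave p = 0.1 for the sum and for the share, which is the smallest p that 3 against 3 libraries allow. The 2 measures differ because the mean library total was 1.81 times higher in leaf, 789728 against 436475. Whether that difference in totals comes from the tissues or from the scaling of the libraries cannot be told apart here. In whole tissues, fewer cells of a type and less RNA per cell cannot be told apart either. The larger share was not particular to the members. The 282 tested sequences with a mean under 20, some of them members, summed to 2634 ± 84.5 in leaf and 3243 ± 107 in petiole (SD, n = 3). With the totals above, their share was more than doubled as well. The summed level of predicted 24 nt sequences with another first base went the other way, from 2384 to 1744.

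**Figure D1:**
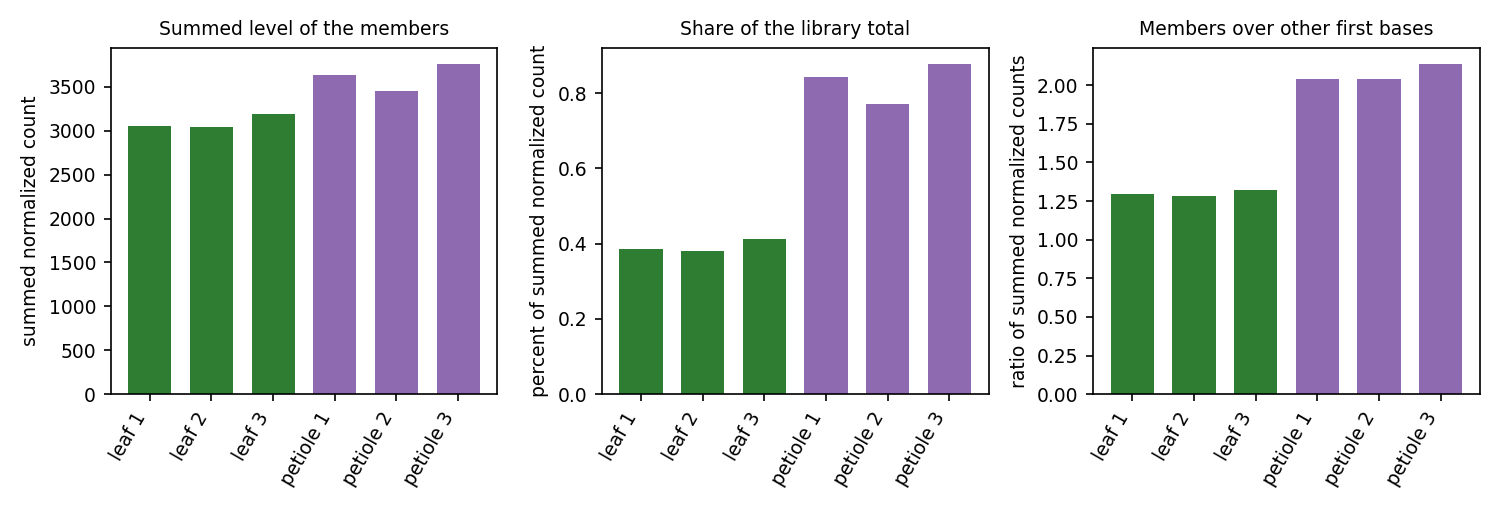
Summed level of the members in normalized counts (left), their percent of the library total (middle) and the ratio of their sum to that of predicted 24 nt sequences with another first base (right), 1 bar a library. In each panel the 3 petiole libraries lie above the 3 leaf libraries, with ratios of tissue means of 1.17, 2.11 and 1.60.

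Most members did not pass the test between tissues on the deposited scale. Each value was compared as log2(value + 1) with limma over all 601 sequences with a mean of at least 5, and called at a Benjamini-Hochberg adjusted p under 0.05. Of the 135 members 16 rose in petiole, 2 fell and the others did not pass. Those 18 calls are 13.3% of the members, against 49.6% of all tested sequences (21.3% higher and 28.3% lower). Of the 16 rises 4 were in members with a leaf mean under 5, which reached the limit on the mean only through petiole and so could not have been called lower; the other 12 had a leaf mean of at least 5. The median log2 difference, petiole minus leaf, was 0.44 over the members and 0.18 over all tested sequences, and 101 of the 135 members had a positive difference. The tissues did not overlap in 33 members, against 59.7% of all tested sequences. In 30 members (22.2%) the petiole libraries all lay above the leaf libraries, against 28.5% of all tested; in 3 (2.22%) they all lay below, against 31.3%.

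The share of members called was below that of the whole table at both high and low levels. Among members with a mean of at least 20, 10 of 42 were called (23.8%), against 218 of 319 (68.3%) of all tested sequences at that level. Abundance was not matched there. In leaf the 42 members summed to a mean of 2280 normalized counts a library and the 319 sequences to 786307. Under a mean of 20, 8 of 93 members were called (8.60%), against 80 of 282 (28.4%). No member under that level was called lower, whereas 32 of the 282 tested sequences were.

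With every library rescaled to the same total, the members' differences moved up with those of the whole table. Under equal totals 73 members were called higher and 2 lower, 54.1% and 1.48% of the members. For all tested sequences the same setting called 71.2%, with 53.4% higher and 17.8% lower. The petiole libraries then all lay above the leaf libraries in 81 of the 135 members, against 57.4% of all tested. The median difference became 1.24 for the members and 0.97 for all tested sequences, a shift of 0.80 and 0.79. The share of members called higher is thus near the background under equal totals and below it on the deposited scale, while the share called lower is small on both. Equal totals raise petiole values, so a member that rose could not turn lower there. Of the 16 members that rose, 14 were called higher under the deposited scale, equal totals, median-of-ratios scaling and quantile normalization, as were both that fell called lower. Those 14 include the 4 with a leaf mean under 5, which could not have been called lower on the deposited scale.

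**Figure D2:**
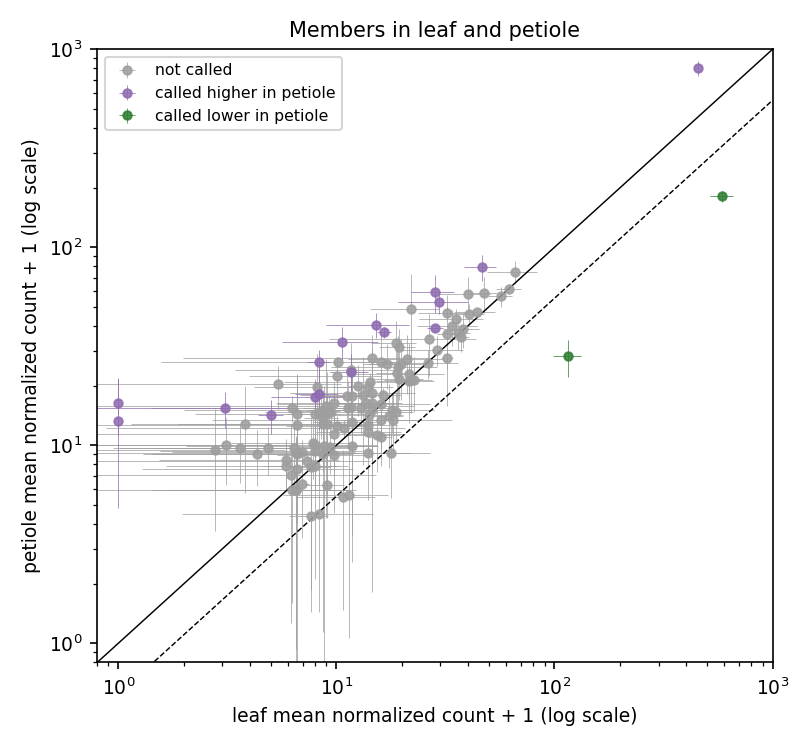
Mean normalized count + 1 in petiole (vertical) against leaf (horizontal), both on log scales, 1 point a member, with bars for the SD of 3 libraries. The solid line marks equal values and the dashed line equal shares of the library total; the 16 members called higher lie above the solid line and the 2 called lower lie below the dashed one.

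The most abundant member rose in petiole. PC-5p-1834_1331 had 450, 449 and 461 normalized counts in the leaf libraries and 755, 771 and 878 in the petiole libraries. The tissues did not overlap, and the spread in leaf was small. Its mean went from 454 ± 6.67 to 802 ± 66.7 (SD, n = 3), a log2 difference of 0.82 ± 0.07 (SE) with a limma adjusted p of 0.000133, and 1.67 under equal totals.

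The sequence opposite to it in the table moved with it. PC-3p-7117_460, a predicted 24 nt sequence that begins with T, is complementary to 23 of its bases, so that 1 base protrudes at each 3′ end of the pair. The capitals mark the complementary stretch.
PC-5p-1834_1331: ATCCCGGGAAGATCAGACGTTGAt
PC-3p-7117_460: TCAACGTCTGATCTTCCCGGGATg
PC-3p-7117_460 had 239, 200 and 222 in leaf and 408, 380 and 437 in petiole. It rose by a log2 difference of 0.89 ± 0.09 (limma adjusted p of 0.00028). The first sequence was 1.89, 2.24 and 2.07 times as abundant as the second in the leaf libraries and 1.85, 2.03 and 2.01 times in the petiole libraries, so the ratio of the strands overlapped between tissues.

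The members ranked 2 and 3 by abundance were the only ones that fell. PC-5p-7170_456 had 666, 539 and 553 normalized counts in leaf and 189, 182 and 168 in petiole. Every petiole library lay below every leaf library, and the mean went from 586 ± 69.7 to 180 ± 10.6 (SD, n = 3). The log2 difference was -1.69 ± 0.10 (SE) with a limma adjusted p of 1.95e-05, and -0.84 under equal totals. No other sequence of the table shared 16 or more bases with it on either strand.

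PC-3p-8640_390 had 95.4, 127 and 121.8 in leaf and 33.1, 21.1 and 27.1 in petiole, again without overlap. Its log2 difference was -2.05 ± 0.20 (limma adjusted p of 0.000195), and -1.22 under equal totals. Its first 21 bases are those of an entry named for a miRNA of Arabidopsis lyrata, aly-miR4245_1ss18CT, as the capitals show.
PC-3p-8640_390: ACAAAGTTTTATACTGATAATctg
aly-miR4245_1ss18CT: ACAAAGTTTTATACTGATAAT
The shorter form was listed at 0 in 5 libraries and at 6.35 in leaf replicate 3, so the form of 24 nt held nearly all the signal of the pair.

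The other 7 of the 10 most abundant members held 1 that rose. PC-5p-27935_148 had 45.6, 37.5 and 53.0 in leaf and 74.7, 69.1 and 92.2 in petiole. The tissues did not overlap, and the log2 difference was 0.78 ± 0.18 (limma adjusted p of 0.0113). PC-5p-28314_146 also lay higher in every petiole library (51.0, 48.9 and 71.4, against 44.6, 27.1 and 45.5) but did not pass, with a difference of 0.55 ± 0.26 and an adjusted p of 0.121 by limma. The remaining 5 overlapped between tissues. PC-5p-17828_215 had log2 differences of 0.20 ± 0.21, PC-3p-16059_233 0.00 ± 0.14, PC-3p-16681_226 0.00 ± 0.15, PC-3p-23313_172 0.29 ± 0.19 and PC-3p-21910_181 0.12 ± 0.19. Under equal totals these 5 and PC-5p-28314_146 were all called higher, with log2 differences of 0.84 to 1.39, so what can be said of them depends on the scale of the libraries.

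**Figure D3:**
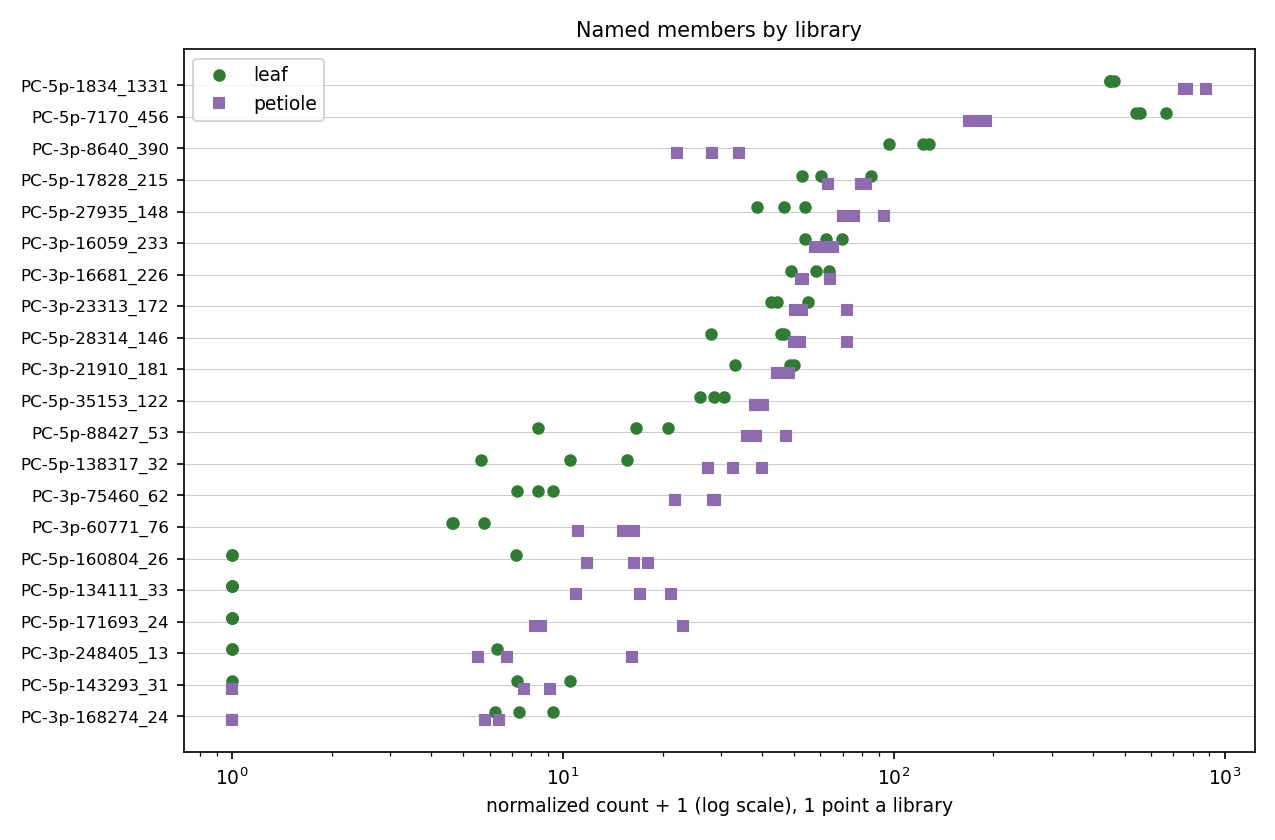
Normalized count + 1 on a log scale, 1 point a library, for the members named by rule, ordered by mean from top to bottom; circles are leaf and squares petiole. A point at 1 is a library where the member was listed at 0, as in all leaf libraries for PC-5p-134111_33 and PC-5p-171693_24.

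The 3 largest rises were in scarce members that reached the mean of 5 through petiole. PC-5p-134111_33 was listed at 0 in the 3 leaf libraries and had 16.1, 20.1 and 9.95 in petiole. PC-5p-171693_24 was also at 0 in leaf and had 7.56, 22.1 and 7.23 in petiole. For both, no fold and no p are given, since the limit on the mean fixed the direction. PC-5p-160804_26 was at 6.22, 0 and 0 in leaf and at 17.0, 15.3 and 10.9 in petiole. It was called higher, but with the same limit on its direction, so its p is not given either. That call was lost in 5 of the 6 fits that left out 1 library, and held without leaf replicate 1.

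The other 3 of the 6 largest rises were above 0 in all libraries. PC-5p-138317_32 went from 4.67, 14.6 and 9.53 in leaf to 26.5, 38.9 and 31.6 in petiole, a ratio of means of 3.37 and a log2 difference of 1.75 ± 0.40. PC-3p-75460_62 had 8.30, 6.25 and 7.41 in leaf and 27.4, 27.8 and 20.8 in petiole, a ratio of 3.46 and a log2 difference of 1.66 ± 0.23. PC-5p-88427_53 had 19.7, 15.6 and 7.41 in leaf and 35, 37.4 and 46.1 in petiole, a ratio of 2.77 and a log2 difference of 1.50 ± 0.36. None of the 3 overlapped between tissues, and their limma adjusted p were 0.0113, 0.00113 and 0.0138. The last of these lost its call without petiole replicate 3 (adjusted p of 0.0546).

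The remaining 8 members that rose had smaller differences, from 0.46 to 1.49 on the log2 scale. The smallest was in PC-5p-35153_122, with 29.6, 27.6 and 24.9 in leaf and 37.3, 39.3 and 37.1 in petiole. Its limma adjusted p of 0.0354 passed the threshold only without leaf replicate 1 among the 6 fits that left out a library. Of the 16 rises 9 were called in all 6 of those fits, as were both falls. Those 9 include PC-5p-134111_33, PC-5p-171693_24 and PC-3p-60771_76, whose direction the limit on the mean fixed.

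Members with 5p and with 3p names were nearly equal in number. Names with 5p were given to 65 members and names with 3p to 70, with median levels of 12.3 and 14.7. Of the 5p names 10 rose and 1 fell, and of the 3p names 6 rose and 1 fell, against 21.3% higher and 28.3% lower over all tested. The limit on the mean fixed the direction of PC-5p-134111_33, PC-5p-171693_24 and PC-5p-160804_26 among the 5p rises and of PC-3p-60771_76 among the 3p rises. The petiole libraries all lay above the leaf libraries in 19 of the 5p names (29.2%) and 11 of the 3p names (15.7%), against 28.5% of all tested. The difference between the names was not tested. The ratio of the summed 5p to the summed 3p names was 1.71, 1.61 and 1.48 in leaf and 1.47, 1.58 and 1.62 in petiole. It overlapped between tissues, with an exact permutation p of 0.6 where 0.1 is the smallest possible. One member, PC-5p-62653_74, was listed a second time under a 3p name with the same sequence and values, so that its 2 names give opposite sides of the hairpin.

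Many members were related in sequence to one another. An exact stretch of at least 16 bases was shared on the same strand by 25 pairs of members and on opposite strands by 22 pairs, and 27 pairs differed by at most 2 bases over their length. By these links 50 of the 135 members fell into 12 groups, of 17, 6, 6 and 5 members and 8 pairs. Counting links to any sequence of the table, 81 members had a relative and 54 had none. Reads of near-identical sequences may have been divided among them, so single values within such groups are uncertain.

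The group of 17 was built on a shared core. The most frequent stretch of 10 bases among all members was TTCTTATATT, or its reverse complement AATATAAGAA. It was in 19 of the 135 members (14.1%), 14 of them in this group, in 16 of the 35 named 24 nt sequences that begin with A (45.7%), and in 7.82% of all tested sequences; it was chosen because it is frequent here. All 11 members with the first form had 3p names and all 8 with the reverse complement had 5p names. The first form began at base 11 in 9 of the 11, and the reverse complement at base 6 in all 8. In the 8 sequences shown the capitals mark it, and 3p members differ among themselves in the bases just before and after.
PC-3p-19990_195: aagagacggtTTCTTATATTctgc
PC-3p-36663_118: aagagacagaTTCTTATATTccgc
PC-3p-34681_123: aagagacagtTTCTTATATTccgc
PC-3p-30304_138: aagaaacggtTTCTTATATTctgc
PC-3p-72979_64: aagagacagtTTCTTATATTctgc
PC-5p-28314_146: aggggAATATAAGAAactgtttct
PC-5p-96073_49: agcggAATATAAGAAattgtctct
PC-5p-66714_70: agcagAATATAAGAAaccgtttct

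Within that group the 2 strands were offset in a constant way. All 10 complementary pairs among its members were offset by 1 base at each 5′ end, so that the first base A of either sequence protruded. Further bases did not match in some pairs, whose complementary stretch was as short as 16 bases. Among all pairs of members this offset held for 13 of 22 complementary pairs, and 0 of the 22 were offset by 2 bases at the 3′ ends. Of all 150 complementary pairs of a member with any sequence, 41 had the group's offset at the member's 3′ end. In 17 the member's 3′ end ran 2 bases past its partner. Where both sequences had 24 nt (99 pairs), these numbers were 35 and 1. Pairs within the group share sequences and are not independent. The longest such pair is shown with the complementary stretch in capitals.
PC-3p-30304_138: aAGAAACGGTTTCTTATATTCTGC
PC-5p-66714_70: aGCAGAATATAAGAAACCGTTTCT
PC-3p-30304_138 had 39.4, 36.5 and 32.8 normalized counts in leaf and 37.8, 27.8 and 37.1 in petiole. PC-5p-66714_70 had 15.6, 21.9 and 7.41 in leaf and 8.51, 12.5 and 16.3 in petiole. Both overlapped between tissues.

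The summed level of the group of 17 was higher in each petiole library, while few of its members passed. The sums were 335, 307 and 349 in leaf and 420, 410 and 504 in petiole. Of its members 2 rose, PC-5p-69228_68 and PC-3p-68320_69, and none fell, which is 11.8% against 21.3% higher over all tested. The call of PC-3p-68320_69 was lost in 4 of the 6 fits that left out 1 library (limma adjusted p of 0.0551 to 0.0651), and held without leaf replicate 3 and without petiole replicate 1. PC-5p-69228_68 had 15, 14.6 and 16.9 in leaf and 33.6, 38.4 and 36.6 in petiole, a ratio of means of 2.33. PC-3p-72979_64 had 29.0, 31.3 and 33.4 in leaf and 29.3, 27.3 and 23.1 in petiole, so this relative lay no higher in petiole and did not pass. The median log2 difference of the group was 0.55 (1.39 under equal totals), with a range from -1.17 to 2.16.

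A smaller group of 6 held the member with the largest fitted difference. Its sums were 21.8, 13 and 40.8 in leaf and 80.8, 69.1 and 74.6 in petiole, so the petiole sums all lay above the leaf sums. It holds PC-5p-134111_33 and PC-3p-60771_76, which are complementary over the 21 bases in capitals.
PC-3p-60771_76: aGTTAAAAGTTAAGAGACGGTTtc
PC-5p-134111_33: aagAACCGTCTCTTAACTTTTAAC
PC-3p-60771_76 had 3.63, 3.65 and 4.77 in leaf and 14.2, 10.1 and 15.4 in petiole, a ratio of means of 3.29 and a log2 difference of 1.49 ± 0.30, and was called higher. Both strands had leaf means under 5 and reached the limit on the mean only through petiole, so it favoured this joint direction and that of the group's sum. No p is given for either strand. PC-5p-143293_31 shares the first 20 bases of PC-5p-134111_33 and had 0, 6.25 and 9.53 in leaf and 6.62, 0 and 8.14 in petiole, with full overlap. The other 3 of the group did not pass. By limma, PC-3p-110751_42 had an adjusted p of 0.0513 and a log2 difference of 2.47 ± 0.86, and PC-5p-99655_47 and PC-3p-83441_57 had log2 differences of 1.40 ± 1.02 and 1.42 ± 0.77.

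Both of these groups are related to entries named for miR9563, a family named from Brassica. Of the members 22 were linked to such entries, 12 on the opposite strand and 12 on the same strand, and 15 of the 22 belong to the group of 17. Among the 22, 4 rose and none fell, or 18.2% against 21.3% higher over all tested. Those 4 include PC-5p-134111_33 and PC-3p-60771_76, whose direction the limit on the mean fixed. The most abundant relative was bra-MIR9563b-p5_1ss5TC, which shares 19 bases with PC-5p-134111_33 on the same strand.
PC-5p-134111_33: aagaaCCGTCTCTTAACTTTTAAC
bra-MIR9563b-p5_1ss5TC: gaacCCGTCTCTTAACTTTTAACt
That entry was present in every leaf library, at 220, 180 and 217, and at 282, 270 and 241 in petiole. It rose by a log2 difference of 0.36 ± 0.11 (limma adjusted p of 0.0353), while PC-5p-134111_33 was listed at 0 in leaf; the difference between the 2 was not tested. The call of the named entry was lost in 4 of the 6 fits that left out 1 library (limma adjusted p of 0.0560 to 0.105), and held without leaf replicate 1 and without petiole replicate 3.

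**Figure D4:**
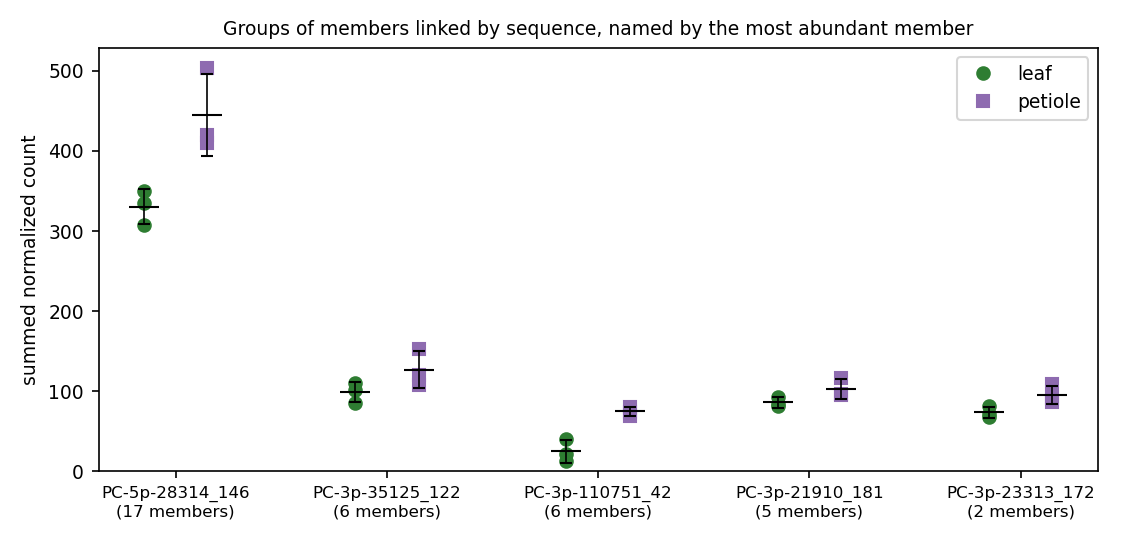
Summed normalized count of 5 groups of linked members, the largest first and ties by level, named by their most abundant member; points are libraries, and horizontal marks with bars are means with the SD of 3 libraries. The group of 17 lies at 307 to 349 in leaf and 410 to 504 in petiole, and the group of PC-3p-110751_42 at 13 to 40.8 and 69.1 to 80.8. In the latter the limit on the mean favoured petiole, through members with a leaf mean under 5.

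Further members paired along their whole length. PC-3p-35125_122 and PC-5p-68457_68, and likewise PC-3p-26657_154 and PC-5p-37036_117, are exact reverse complements over 24 bases, the 2 such pairs among the members. One of each pair is shown.
PC-3p-35125_122: AGTTGGGTTGGAGCATTTCTTACT
PC-3p-26657_154: AGAGGAACTCTATTATAGAGGCAT
PC-3p-35125_122 had 40.5, 24 and 21.2 in leaf and 57.2, 44.6 and 53.4 in petiole and rose (log2 difference 0.88 ± 0.26, limma adjusted p of 0.0318). The call was lost in 5 of the 6 fits that left out 1 library (limma adjusted p of 0.0586 to 0.102), and held without leaf replicate 1. Its reverse complement PC-5p-68457_68 had 38.4, 29.2 and 43.4 in leaf and 32.1, 34.1 and 46.1 in petiole, a difference of 0.02 ± 0.22 that did not pass. Whether the strands differ in their response was not tested. In the second pair both strands overlapped between tissues, with differences of 0.00 ± 0.30 and 0.11 ± 0.28.

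PC-5p-35153_122, the member with the smallest rise, is complementary over 21 bases to a predicted sequence of 21 nt, PC-3p-13429_270, and over 17 bases to the abundant member PC-3p-23313_172.
PC-5p-35153_122: AGATACGGTCTCTTAGCTTTTaac
PC-3p-13429_270: AAAAGCTAAGAGACCGTATCT
PC-3p-13429_270 had 104, 125 and 108 in leaf and 144, 130 and 113 in petiole. It overlapped between tissues and did not pass, with a log2 difference of 0.20 ± 0.13. PC-3p-23313_172 also shares 16 complementary bases with PC-5p-10607_328, another predicted sequence of 21 nt, which had 72.1, 80.8 and 86.8 in leaf and 80.8, 87.8 and 88.2 in petiole and did not pass (0.10 ± 0.11). These 2 relatives of 21 nt were shown for their abundance. A further predicted relative of 20 to 22 nt, PC-3p-23410_171, is complementary to PC-5p-35153_122 over 21 bases and was scarcer than either member, with 16.1, 10.9 and 9.53 in leaf and 18, 14.9 and 14.5 in petiole.

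Seeds recurred among the members, often within the same linked group. The 135 members had 108 different seeds, and 40 members shared theirs with another. The most frequent, AGAGACA, was in 7 members, all with 3p names. The next, AGAACCG, was in 5, among them PC-3p-16681_226 and PC-5p-134111_33, of which the first had about the same level in both tissues on the deposited scale (57.1, 47.9 and 62.5 in leaf, 52.0, 63.3 and 51.5 in petiole) and the second was listed at 0 in leaf.

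Beyond the first base, the members resembled other predicted sequences of 24 nt in their ends. The last base was T in 49.6%, C in 36.3% and G in 2.22% of the members, and 45.2%, 38.1% and 2.38% of the 42 predicted 24 nt sequences that begin with C, G or T and have a mean of at least 5. Without the first and last base, G and C made up 37.8% of the members' bases and 40.2% of the others'. Of the predicted 24 nt sequences that reached the mean of 5, 76.3% began with A, 13.6% with G, 7.91% with T and 2.26% with C. Because many members are related, these shares are given without a test.

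Other classes of the table were read beside the members. Among predicted 24 nt sequences with another first base, 10 rose and 3 fell of 42, with a median log2 difference of 0.73. Among sequences of 24 nt that begin with A and carry the name of a known miRNA, 4 rose and 3 fell of 35, with a median of 0.43. Among predicted sequences of 20 to 22 nt, 15 rose and 26 fell of 75, with a median of -0.35. The share that passed was 13.3% in the members, 31.0%, 20% and 54.7% in these 3 classes and 49.6% over all tested; these counts describe the lists and were not tested against each other.

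**Figure D5:**
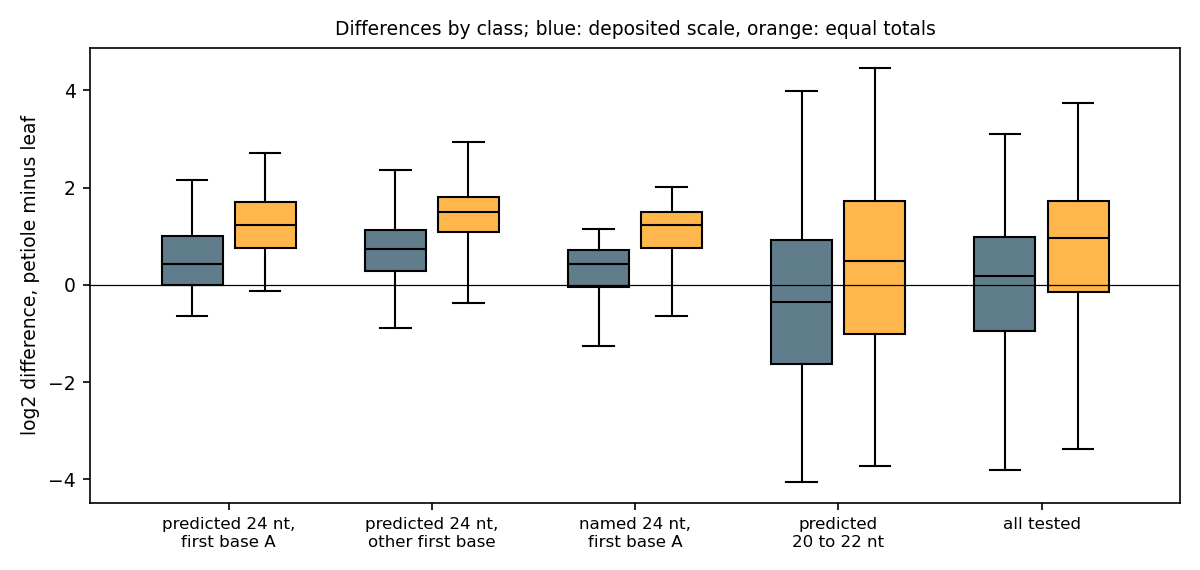
Log2 difference, petiole minus leaf, of the tested sequences by class; boxes span the quartiles with a line at the median, and whiskers run from the 5th to the 95th percentile. The left box of each pair is the deposited scale and the right box equal totals, which moves the median of the members from 0.44 to 1.24 and that of all tested sequences from 0.18 to 0.97.

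The ratio of the members to predicted 24 nt sequences with another first base does not depend on the scale of a library. It was 1.29, 1.28 and 1.32 in leaf and 2.04, 2.04 and 2.14 in petiole, a difference without overlap and with an exact permutation p of 0.1, the smallest possible. The difference moved with a few abundant sequences. PC-3p-433_3751, the most abundant sequence with another first base, went from 1459 ± 67.6 to 470 ± 26.9 (SD, n = 3). Its class as a whole summed to means of 2384 in leaf and 1744 in petiole, so the rest of that class was higher in petiole. Without the 2 most abundant members alone, the ratio averaged 0.862 for leaf and 1.51 for petiole, and the log2 difference was 0.81 against 0.68 with them. Without the 2 most abundant of each class, the ratio was 2.93 ± 0.29 in leaf and 3.05 ± 0.06 in petiole (SD, n = 3). The log2 difference was then 0.06, and the libraries overlapped. Both of these exclusions were chosen after seeing the data. The size of the difference thus depends on which abundant sequences are counted, and 3 against 3 libraries cannot test it below 0.1. Its direction depends on PC-3p-433_3751, since the rest of that class rose by a larger factor in petiole than the members' sum did. The ratio without that sequence alone was not tested.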

How the data were processed

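Small RNA libraries were made from total RNA of leaf and petiole, 3 each, and the reads were cleaned with the program ACGT101-miR, per the labels' protocols. For the aligner, genome build and scaling factor: not given in the sources used here. Per the file headers, the deposited signal values are normalized counts for each library, and they are not whole numbers. The low values stand on steps taken as 1 read, and 71.5% to 76.9% of those under 60 reads were whole within 0.02 reads. With midpoints between steps counted as well, 98.4% to 99.7% fitted. Smaller steps were not tried, so read numbers and depths given here are nominal. Counts were therefore not taken back and no count model was used.

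Of 1069 entries, 58 repeated a sequence with the same values and were merged. The log2 of each value plus a pseudocount of 1 entered limma 3.58.1 (run in R 4.3.3 with a mean-variance trend) for the 601 sequences with a mean of at least 5, and p-values were adjusted over all of them. Differences are petiole minus leaf; the added 1 understates the change of scarce sequences. Sums and ratios were compared by exact two-sided permutation over libraries. The fit was checked on simulated data. Relatives were sequences with 16 shared bases on either strand or at most 2 differences over 24 bases. All members and lists were chosen with earlier results of these data known. Named members were the 10 most abundant, the 6 largest rises and the falls among calls without overlap, the 3 lowest, and the members of the 5 most abundant related pairs; the 3 sequences just under the mean of 5 were added. Any other name was picked with its values in view.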

Additional observations from a re-analysis of the deposited data

How the results depend on the processing

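The 2 members called lower stayed at 2 or 3 under every alternative run. The number called higher lay between 14 and 20 in the runs that kept all members and libraries, except under equal totals, where it was 73. In the run limited to a mean of at least 20, 12 of the 42 members tested were called higher, against 8 of those 42 in the main fit. Leaving out 1 library at a time gave 11 to 18 members called higher, 2 called lower in each fit and 245 to 284 of all tested sequences called. Over those fits the difference between tissues was 0.20 to 0.26 (log2) for the members' sum, 0.414 to 0.467 percentage points for their share and 0.65 to 0.69 (log2) for their ratio to other first bases. PC-3p-16681_226 turned from a log2 difference of 0.00, just below zero, to 0.84 and was called higher under equal totals. The scaling also set the split of calls over all tested sequences, 128 higher and 170 lower as deposited against 321 and 107 under equal totals.

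Same-numbered leaf and petiole libraries did not deviate together (correlations of 0.07, 0.01 and 0.01), and not every library correlated best with its own number. With 3 libraries a tissue and many scarce sequences, this cannot tell whether the numbers pair them. With the replicate number as a block, 17 members were called higher and 2 lower, and PC-5p-35153_122 did not pass. Without the 2 most abundant members, an alternative chosen after seeing the data, the members' sum differed by 0.36 (log2), their share by 0.344 percentage points and their ratio to other first bases by 0.81 (log2); without the 2 most abundant of each class, also chosen after seeing the data, that ratio differed by 0.06. With 3 libraries a tissue, and a median member at 9.50 to 12 reads in the leaf libraries, changes of scarce members may have gone undetected.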
